A study of Mus musculus with 2 samples.

Results

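The interleukin 1 family genes Il1a, Il1b, Il1f9, Il18, Il1rn, Il1r2, Il1rap and Il18rap were followed through the cell types of mouse bone marrow, after a stroke model and without one. They were chosen by name, as 8 of the 25943 genes in the deposited table, and all 8 were found there. The series profiled unsorted marrow cells of male wild-type (WT) mice aged 8 to 10 weeks. In the stroke model, middle cerebral artery occlusion (MCAO), an artery that supplies the brain is blocked. There was 1 MCAO library and 1 control library. How many animals made up each library, how long after occlusion marrow was taken and how control animals were treated are not given in the sources used.

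Il1a, Il1b, Il1f9 (also called Il36g) and Il18 encode signalling ligands. Interleukin 1 alpha and beta act through the receptor encoded by Il1r1, and interleukin 36 gamma through the product of Il1rl2. Both receptors need the shared co-receptor encoded by Il1rap. Interleukin 18 acts through Il18r1 and its co-receptor Il18rap. Il1rn encodes the receptor antagonist, which occupies the interleukin 1 receptor without signalling, and Il1r2 encodes a decoy receptor that binds interleukin 1 but has no signalling tail. Interleukin 1 beta and interleukin 18 are made as precursors that caspase-1 cuts in the inflammasome, so an mRNA level does not give the amount of active cytokine. In marrow, interleukin 1 is known for driving the output of neutrophils and other myeloid cells.

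The MCAO library had 5398 cells, 35401492 unique molecular identifiers (UMIs, the molecules counted) and a median of 4952 UMIs a cell, and the control library had 5212 cells, 25886279 UMIs and a median of 3344. A level is given as summed UMIs per 10000 UMIs of a class of cells, with a 95% exact Poisson interval where one is printed, and a fold is the MCAO level over the control level with its exact interval. Each group is 1 library, so there is no replicate check and no test between conditions, and the intervals cover counting error only. Cells were clustered without the 61 genes of the interleukin 1 lists, and clusters were called X-like from marker genes, which gave 15 classes, 12 of them with 50 or more cells from each library. All 9 mature neutrophil markers, all 8 immature and all 9 pre-neutrophil markers were detected in at least 20% of cells of their class, and 9 of 10 monocyte markers were. B-cell-like cells were used to show how much RNA of each gene cells hold that are not known as its source, which includes RNA set free from lysed cells. This class kept its marked doublets. For Il1b, Il1f9, Il1rn, Il1r2 and Il18rap its top cell was a marked doublet in both libraries. Free RNA differed between the libraries: in mature-neutrophil-like cells the summed level of 12 erythroid markers was 18.5 in MCAO and 10.7 in control, and that of 12 B-cell markers was 3.94 in MCAO and 6.41 in control.

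The 8 genes lie on 4 chromosomes of the mouse build mm10 (GRCm38), and 6 of them lie in neighbouring pairs. Il1b is at chr2:129364570-129371139 on the minus strand, 54.6 kb from Il1a at chr2:129299610-129309972, also on the minus strand. Il1f9 is at chr2:24186476-24193568 on the plus strand, 143.3 kb from Il1rn at chr2:24336853-24351494. Il1r2 at chr1:40074079-40125231 and Il18rap at chr1:40515362-40551705 are 390.1 kb apart, both on the plus strand. Il18 is at chr9:50554827-50581840 and Il1rap at chr16:26581704-26730117, both on the plus strand. Il1b overlaps the antisense gene Il1bos, which had 9 UMIs in MCAO and 11 in control, against 4677 UMIs of Il1b in MCAO and 5203 in control; whether reads were counted by strand is not stated in the sources used. Il1a, Il18, Il1r2 and Il1rap also overlap other annotated genes.

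The promoters of 4 of the genes are shown because these genes were high in mature-neutrophil-like cells but differed in how they varied among neutrophils and between the libraries. Each is the RefSeq window on GRCm38.p6 from 250 bases before to 50 bases after the start site. Il1b is chr2:129371090-129371389 on the minus strand, Il1f9 chr2:24186226-24186525, Il1rn chr2:24345121-24345420 (1 of 3 windows listed for this gene) and Il18rap chr1:40515112-40515411, all 3 on the plus strand. Capitals mark matches on either strand to the PU.1 core GAGGAA, the C/EBP motif TTNNGNAA, the AP-1 motif TGANTCA, the TATA box TATAAA or the NF-kB consensus:
Il1b: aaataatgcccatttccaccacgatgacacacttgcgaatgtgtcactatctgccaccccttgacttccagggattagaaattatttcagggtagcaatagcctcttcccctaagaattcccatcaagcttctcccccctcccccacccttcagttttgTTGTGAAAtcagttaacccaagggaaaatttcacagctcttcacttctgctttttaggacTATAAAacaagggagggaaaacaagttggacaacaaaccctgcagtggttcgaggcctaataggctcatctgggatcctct
Il1f9: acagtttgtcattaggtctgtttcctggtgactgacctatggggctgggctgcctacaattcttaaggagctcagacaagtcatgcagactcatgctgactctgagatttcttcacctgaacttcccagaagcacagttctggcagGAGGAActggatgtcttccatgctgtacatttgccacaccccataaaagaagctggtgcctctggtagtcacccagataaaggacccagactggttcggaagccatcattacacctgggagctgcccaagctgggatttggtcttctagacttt
Il1rn: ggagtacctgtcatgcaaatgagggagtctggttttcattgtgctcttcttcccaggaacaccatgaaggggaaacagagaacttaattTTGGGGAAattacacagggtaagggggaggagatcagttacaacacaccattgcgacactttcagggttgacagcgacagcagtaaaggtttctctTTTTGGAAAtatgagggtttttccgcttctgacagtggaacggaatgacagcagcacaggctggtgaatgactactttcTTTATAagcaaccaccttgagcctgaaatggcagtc
Il18rap: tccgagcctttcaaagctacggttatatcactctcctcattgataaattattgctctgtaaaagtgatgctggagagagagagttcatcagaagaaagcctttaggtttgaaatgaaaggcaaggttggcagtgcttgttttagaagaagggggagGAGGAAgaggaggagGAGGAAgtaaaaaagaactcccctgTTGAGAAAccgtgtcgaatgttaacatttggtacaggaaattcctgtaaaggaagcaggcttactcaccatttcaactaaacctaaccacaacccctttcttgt

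Counted from the start site, Il1b had a TATA box at -31 to -26 and a C/EBP match at -91 to -84. Il1f9 had 1 match, a PU.1 core at -104 to -99. The Il1rn window shown had C/EBP matches from -161 to -154 and, overlapping each other, from -65 to -57. It also had a reversed TATA box after the start site at 15 to 20. Another Il1rn window, chr2:24336610-24336909, holds the annotated gene start and had an AP-1 match at -141 to -135. The remaining Il1rn window, chr2:24345041-24345340, overlaps the one shown and had C/EBP matches only. Il18rap had PU.1 cores at -94 to -89 and at -79 to -74 and a C/EBP match at -54 to -47. Of the 32851 windows of this length, 28.3% held the PU.1 core, 40.7% the C/EBP motif, 7.81% the AP-1 motif, 13.6% the TATA box and 8.46% the NF-kB consensus. Of the 10 windows of the 8 genes, 0 held the NF-kB consensus, and the Il1r2 and Il1rap windows held none of the 5 motifs. The motifs are common, and a match is a stretch of letters, not a bound site.

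Il1b mRNA was a feature of the last neutrophil stage. Mature-neutrophil-like cells held 81.3% of all Il1b UMIs in MCAO and 86.8% in control. Their level was 7.09 per 10000 in MCAO (3802 UMIs in 1495 cells) and 9.09 in control (4515 UMIs in 1644 cells). Every earlier neutrophil stage lay below the B-cell-like level of 0.343 in MCAO and 0.458 in control: promyelocyte-like cells had 0.186 in MCAO and 0.155 in control, pre-neutrophil-like cells 0.163 in MCAO and 0.214 in control, and immature-neutrophil-like cells 0.163 in MCAO and 0.148 in control. Per 10000 UMIs, the transcript of this cytokine thus stood above the B-cell-like level only at the mature stage of the lineage. There it was 20.7 times that level in MCAO and 19.8 times in control. The top B-cell-like cell, a marked doublet in each library, held 12 of 47 Il1b UMIs in MCAO and 11 of 72 in control. Without it the B-cell-like level was 0.256 in MCAO and 0.389 in control. Pro-B-or-pre-B-like cells had 0.229 in MCAO and 0.139 in control. The earlier neutrophil stages lay below that class in MCAO and above it in control. Earlier stages were more deeply covered. The median was 15968 UMIs a cell in MCAO and 14117 in control in promyelocyte-like cells, against 2154 in MCAO and 1991.5 in control in B-cell-like cells. Levels per 10000 UMIs therefore do not settle whether the earlier stages held Il1b beyond free RNA.

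**Figure D1:**
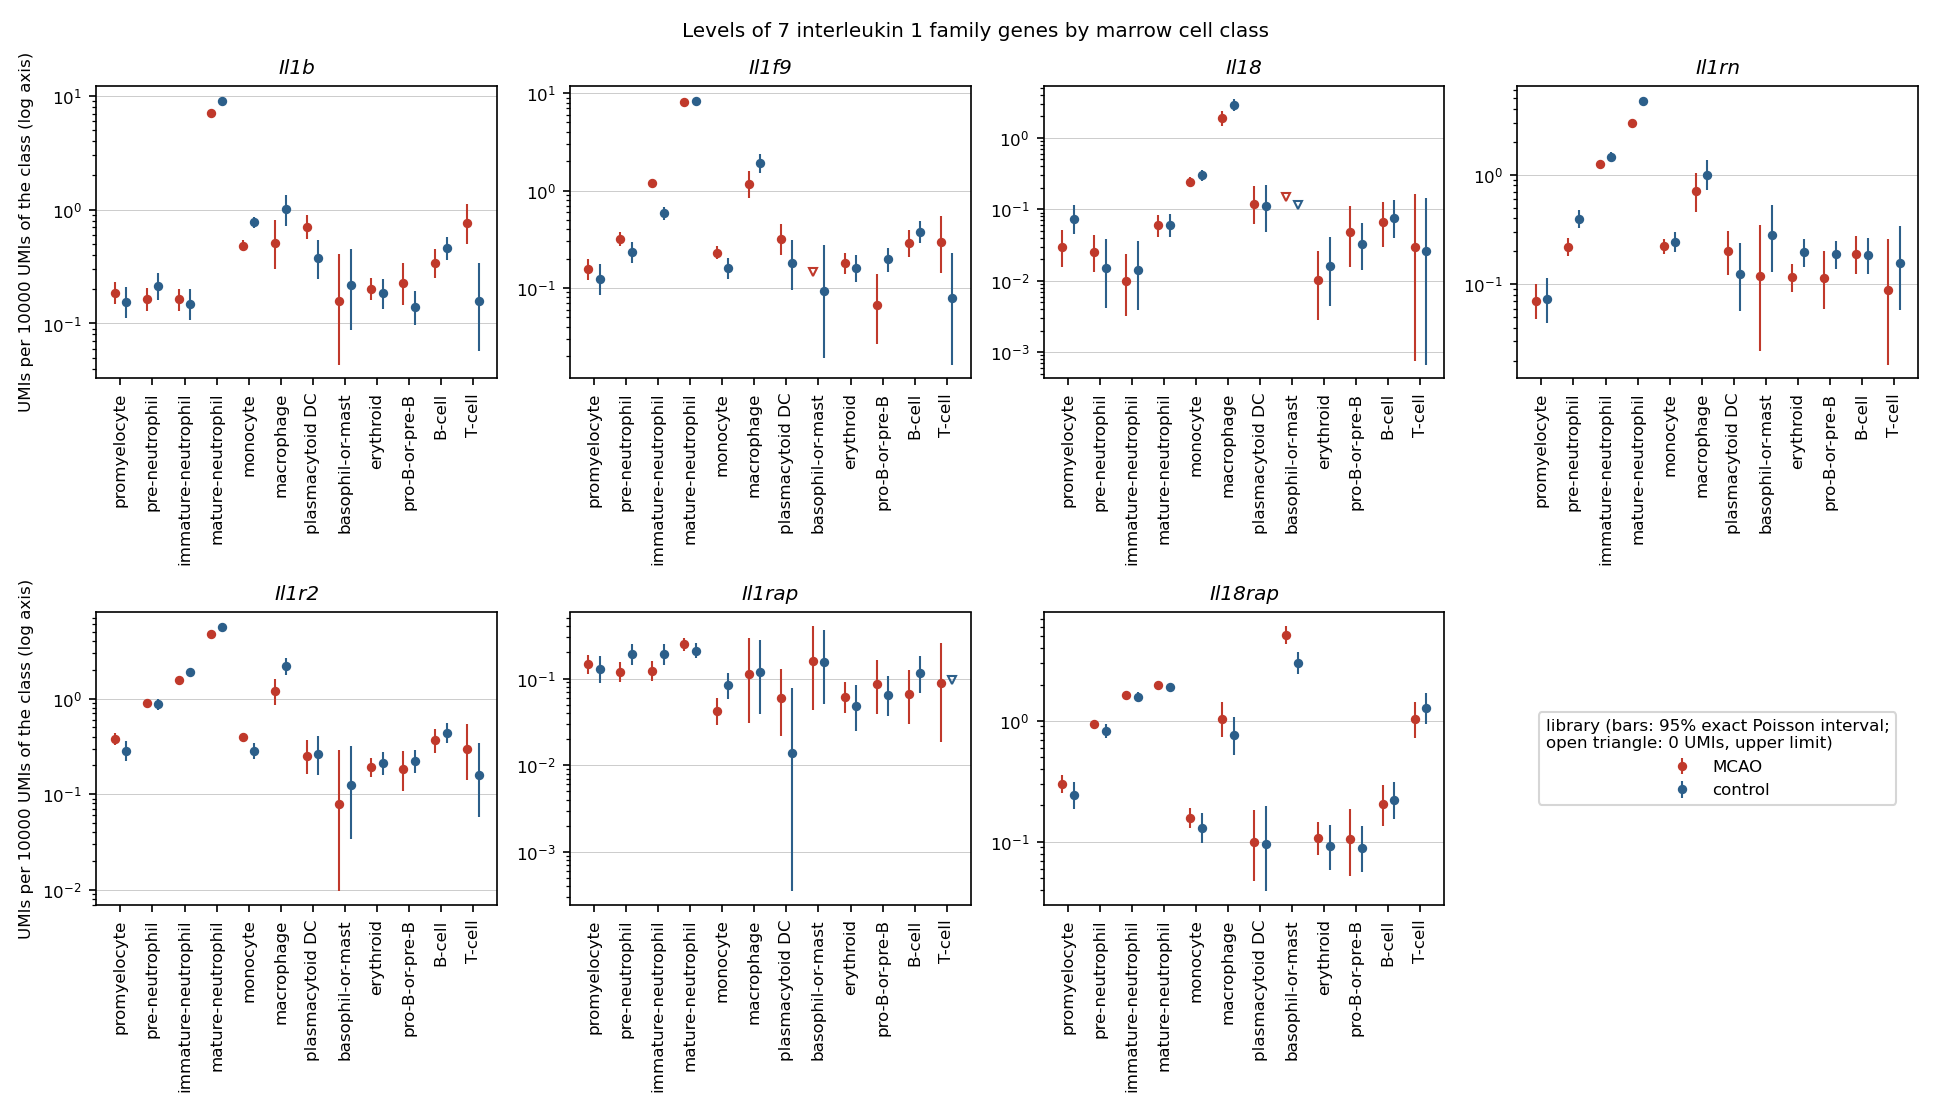
Level of 7 of the 8 genes (UMIs per 10000 UMIs of the class, log axis) in the 12 classes that hold 50 or more cells from each library, MCAO left of control. Points are summed levels, bars 95% exact Poisson intervals, and open triangles the upper limit where no UMI was counted. Il1b, Il1f9, Il1rn and Il1r2 peak in mature-neutrophil-like cells, Il18 in macrophage-like cells and Il18rap in basophil-or-mast-like cells.

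Over the whole mature class, the Il1b level in MCAO was 0.780 of that in control (95% interval 0.747 to 0.815). Among cells with 2000 to 4000 UMIs only, the log2 ratio of the class was 0.036. It ran from -1.06 to 0.036 over the ways of computing it, single clusters among them. The median depth of the class was 3322 UMIs in MCAO and 2713 in control. The part of depth in the lower class level was not tested. The class is made of 3 clusters that the libraries filled differently. Each is called by its leading gene that was not left out of the clustering. The cluster called Ifit3, after an interferon-induced gene, has Il1b itself as its first leading gene and held 27.5% of the mature cells of MCAO and 55.9% of those of control, the cluster led by Stfa2, a stefin A gene, held 54.4% in MCAO and 6.33% in control, and the cluster led by Thbs1, the gene of thrombospondin 1, held 18.1% in MCAO and 37.8% in control. Within the Ifit3 cluster the Il1b level was 18.99 in MCAO and 19.3 in control, and the fold was 0.982 (0.931 to 1.03). The Stfa2 cluster had 5.53 in MCAO and 6.002 in control, with a fold of 0.921 (0.782 to 1.09). In both clusters the interval of the fold included 1. The Thbs1 cluster, at the low end, had 0.425 in MCAO and 0.909 in control, and the fold was 0.468 (0.343 to 0.629). With the 3 clusters weighted alike, the log2 ratio for Il1b was -0.07, against -0.36 for the class as a whole, and the level of the Ifit3 cluster makes up most of that mean. The part of the cluster mix in the lower class level was not tested. Fewer cells of a kind and less RNA per cell cannot be told apart in the class sum, and the cluster values separate them only as far as the rebuilt clusters do. Il1f9 was among the 10 leading genes of the Stfa2 cluster; neither it nor Il1b was used to cluster the cells.

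**Figure D2:**
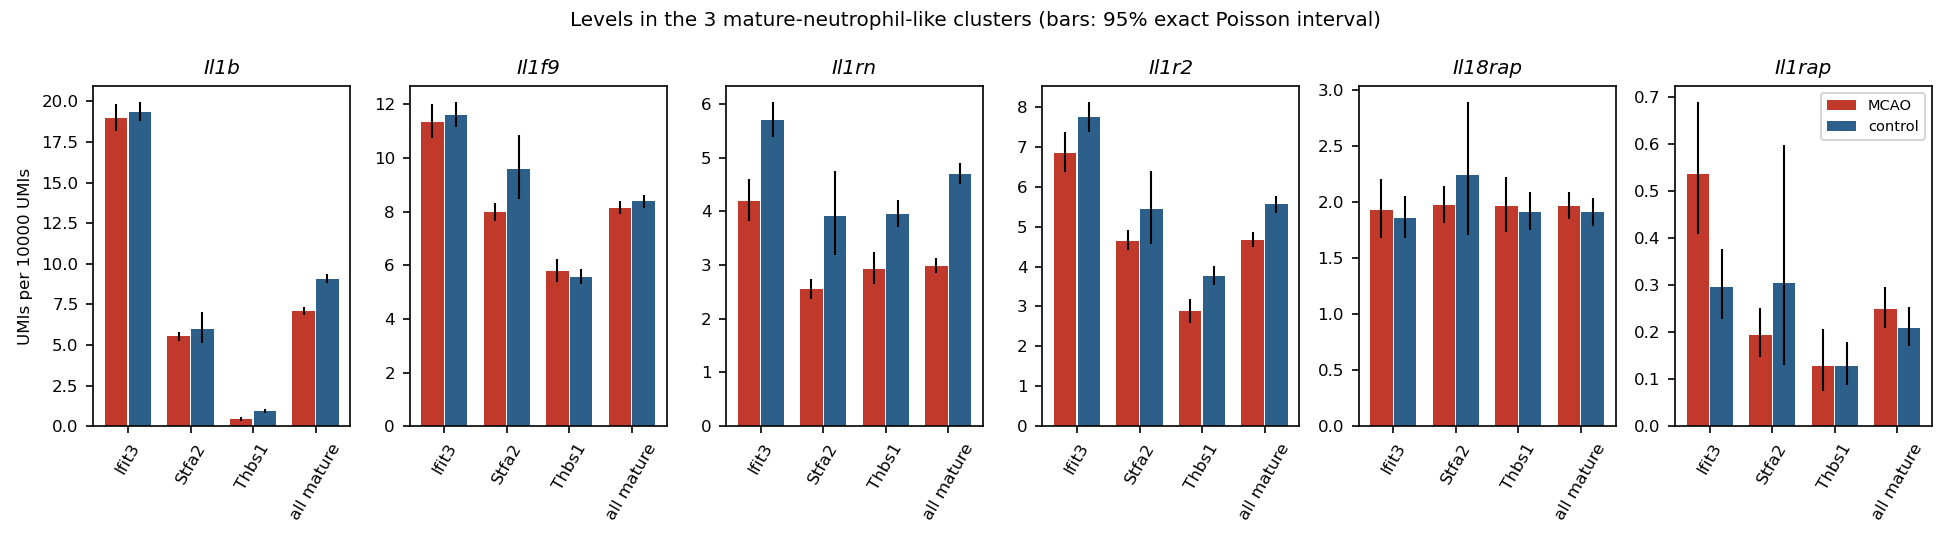
Level of 6 genes (UMIs per 10000 UMIs, axes from 0) in the 3 clusters of mature-neutrophil-like cells and in all of them, MCAO left of control, with 95% exact Poisson intervals. Il1b differs more between clusters than between libraries (18.99 in MCAO and 19.3 in control in the Ifit3 cluster), whereas Il1rn is lower in MCAO in each of the 3 clusters.

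Il1b UMIs were unevenly spread over mature cells in both libraries. The 10% of cells with most Il1b UMIs held 52.5% of the Il1b UMIs in MCAO and 48.9% in control, and the top cell had 36 UMIs in MCAO and 34 in control. For Il1f9 the top 10% held 32.0% in MCAO and 34.5% in control. At least 1 Il1b UMI was seen in 44.9% of mature cells in MCAO and 50% in control (822 of 1644). With every cell thinned to 1000 UMIs these shares were 33.8% in MCAO and 39.8% in control, beside 3.27% in MCAO and 2.89% in control of B-cell-like cells, whose median depth was 2154 UMIs in MCAO and 1991.5 in control, against 3322 in MCAO and 2713 in control in the mature class. Within the Ifit3 cluster, Il1f9 and Il1rn were seen about as often in cells with Il1b as in cells without it. In thinned cells with Il1b, 57.8% also had Il1f9 in MCAO and 54.3% in control, and in cells without Il1b 60.6% in MCAO and 59.1% in control did. For Il1rn the shares were 28.5% in MCAO and 38.5% in control with Il1b, and 31.6% in MCAO and 35.5% in control without it. Il1rap was seen more often with Il1b in both libraries, in 7.81% of cells with it in MCAO and 3.72% in control, and in 3.87% of cells without it in MCAO and 1.99% in control.

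Monocyte-like cells also held Il1b above the B-cell-like level, with the highest level in a small cluster led by Ace. The monocyte-like class had an Il1b level of 0.485 in MCAO and 0.772 in control, a fold of 0.628 (0.537 to 0.734). Its cluster led by Ace, with Nr4a1 and Cd300e among its leading genes as non-classical monocytes have, had 2.94 in MCAO (45 UMIs in 44 cells) and 5.11 in control (104 UMIs in 60 cells), 8.59 times the B-cell-like level in MCAO and 11.1 times in control. The cluster led by Vcan, which held most of the monocyte-like Il1b UMIs in MCAO (211 of 353) and more than the Ace cluster in control (132 of 307), had 0.602 in MCAO and 0.785 in control, and the deeply sequenced cluster led by Itga1 had 0.268 in MCAO and 0.337 in control, under the B-cell-like level. The fold was below 1 in each of the 3 clusters, at 0.576 (0.397 to 0.825), 0.766 (0.614 to 0.960) and 0.794 (0.578 to 1.10), in the order Ace, Vcan, Itga1. Among cells with 2000 to 4000 UMIs only, the log2 ratio of the class turned to 0.38, higher in MCAO. Neutrophil markers, summed over 12 genes, stood at 490 per 10000 in MCAO and 143 in control in the Ace cluster, and their part in the result was not tested. Macrophage-like cells had 0.509 of Il1b in MCAO (18 UMIs) and 1.01 in control (42 UMIs), a fold of 0.507 (0.274 to 0.899).

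Il1f9, the gene of interleukin 36 gamma, was also highest at the mature stage and stood above the B-cell-like level in the immature class. It had 8.15 per 10000 in MCAO (4373 UMIs) and 8.38 in control (4164 UMIs) in mature-neutrophil-like cells, a fold of 0.973 (0.932 to 1.02). The interval of this whole-class fold included 1. Over the ways of computing it, single clusters among them, the log2 ratio ran from -0.29 to 0.06. The spread of Il1f9 over the clusters was narrower than that of Il1b. The Ifit3 cluster had 11.4 in MCAO and 11.6 in control, and the Thbs1 cluster 5.80 in MCAO and 5.58 in control. The libraries differed most in the Stfa2 cluster, with 7.99 in MCAO and 9.61 in control. From the Ifit3 to the Thbs1 cluster the level of Il1f9 differed by far less than that of Il1b, in both libraries.

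In immature-neutrophil-like cells Il1f9 stood at 1.20 in MCAO (599 UMIs) and 0.582 in control (165 UMIs), a fold of 2.07 (1.74 to 2.47). This value rests on where the class ends. When clusters were drawn at resolution 2 or 0.5, 489 or 523 cells of the mature class joined the immature class, and the log2 ratio of 1.02 turned to -0.09 or -0.07. The summed level of 9 mature neutrophil markers in the immature class also differed, at 136 in MCAO and 95.3 in control. Its part in the result was not tested. The 10% of immature cells with most Il1f9 UMIs held 64.4% of them in MCAO and 75.2% in control. The median was 0 UMIs a cell in both libraries. Whether the transcript came from immature cells or from more mature cells placed among them was not tested. Pre-neutrophil-like cells had 0.317 in MCAO and 0.232 in control, against 0.292 in MCAO and 0.375 in control in B-cell-like cells.

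Il1a was almost absent from the marrow cells. It had 6 UMIs in the MCAO library and 16 in the control library. Of these, 1 in MCAO and 12 in control were in macrophage-like cells, where the fold was 0.0985 (0.00230 to 0.666), with at most 3 UMIs in a single control cell. Mature-neutrophil-like cells had 1 UMI in each library, so a change of Il1a in neutrophils was not detectable at this depth.

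Il18 was found in macrophage-like and monocyte-like cells and lay below the B-cell-like level at each neutrophil stage. Macrophage-like cells held 1.87 per 10000 in MCAO (66 UMIs in 65 cells) and 2.90 in control (121 UMIs in 93 cells), a fold of 0.645 (0.470 to 0.877). These levels were 28.5 times the B-cell-like level in MCAO and 37.9 times in control. The log2 ratio ran from -0.87 to -0.19 over the ways of computing it. Summed over 12 genes, neutrophil markers in this class stood at 1519 in MCAO and 1064 in control, and their part in the fold was not tested. The Vcan monocyte cluster followed with 0.431 in MCAO and 0.512 in control, a fold of 0.842 (0.642 to 1.11), which includes 1. Mature-neutrophil-like cells had 0.0597 in MCAO and 0.0604 in control, beside 0.0656 in MCAO and 0.0764 in control in B-cell-like cells, which is the level of background. The ligand genes thus differed in where they were highest: Il1b and Il1f9 in mature-neutrophil-like cells, with Il1b also in the Ace monocyte cluster, and Il18 in macrophage-like cells, in both libraries.

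Il1rn, the receptor antagonist gene, was the member with the lowest ratio in mature neutrophils. Its level was 2.99 per 10000 in MCAO (1603 UMIs) and 4.70 in control (2336 UMIs), a fold of 0.636 (0.596 to 0.678) or a log2 ratio of -0.65. Inside each of the 3 mature clusters the interval of its fold lay below 1. The Ifit3 cluster had 4.20 in MCAO and 5.70 in control, a fold of 0.736 (0.660 to 0.820). The Stfa2 cluster had 2.55 in MCAO and 3.91 in control, a fold of 0.652 (0.530 to 0.809), and the Thbs1 cluster had 2.93 in MCAO and 3.95 in control, a fold of 0.741 (0.658 to 0.834). Thinned to 1000 UMIs a cell, 23.4% of mature cells had an Il1rn UMI in MCAO and 33.0% in control, beside 1.82% in MCAO and 1.22% in control of B-cell-like cells.

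The antagonist gene was higher at each later stage of the lineage in both libraries, and its ratio was below 1 at the stages before maturity too. Pre-neutrophil-like cells had 0.220 in MCAO and 0.397 in control, a fold of 0.553 (0.418 to 0.732), though the MCAO level there is close to the 0.190 of its B-cell-like cells. Immature-neutrophil-like cells had 1.26 in MCAO and 1.46 in control, a fold of 0.862 (0.760 to 0.979). Promyelocyte-like cells, at 0.0704 in MCAO and 0.0737 in control, were below the B-cell-like level of 0.190 in MCAO and 0.185 in control. In all cells together the level was 0.754 in MCAO and 1.22 in control.

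Il1r2, the decoy receptor gene, was likewise higher at each later stage and was lower in the mature cells of MCAO by a smaller margin. Promyelocyte-like cells had 0.379 in MCAO and 0.283 in control, pre-neutrophil-like cells 0.899 in MCAO and 0.874 in control, immature-neutrophil-like cells 1.55 in MCAO and 1.89 in control and mature-neutrophil-like cells 4.68 in MCAO and 5.56 in control. The mature fold was 0.842 (0.797 to 0.889). It was 0.886 (0.813 to 0.966) in the Ifit3 cluster, 0.857 (0.721 to 1.02) in the Stfa2 cluster and 0.765 (0.677 to 0.862) in the Thbs1 cluster, below 1 each time. Macrophage-like cells had 1.19 in MCAO and 2.18 in control, and also 1.16 of Il1f9 in MCAO and 1.91 in control and 0.707 of Il1rn in MCAO and 1.01 in control. The summed level of 12 neutrophil markers in these macrophage-like cells was 1519 in MCAO and 1064 in control, beside 292 in MCAO and 254 in control in B-cell-like cells. That of the 9 mature neutrophil markers ran the other way, at 109 in MCAO and 158 in control, as the 3 members did. The part of either list in those values, or in the Il1a, Il1b and Il18 folds of this class, was not tested.

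**Figure D3:**
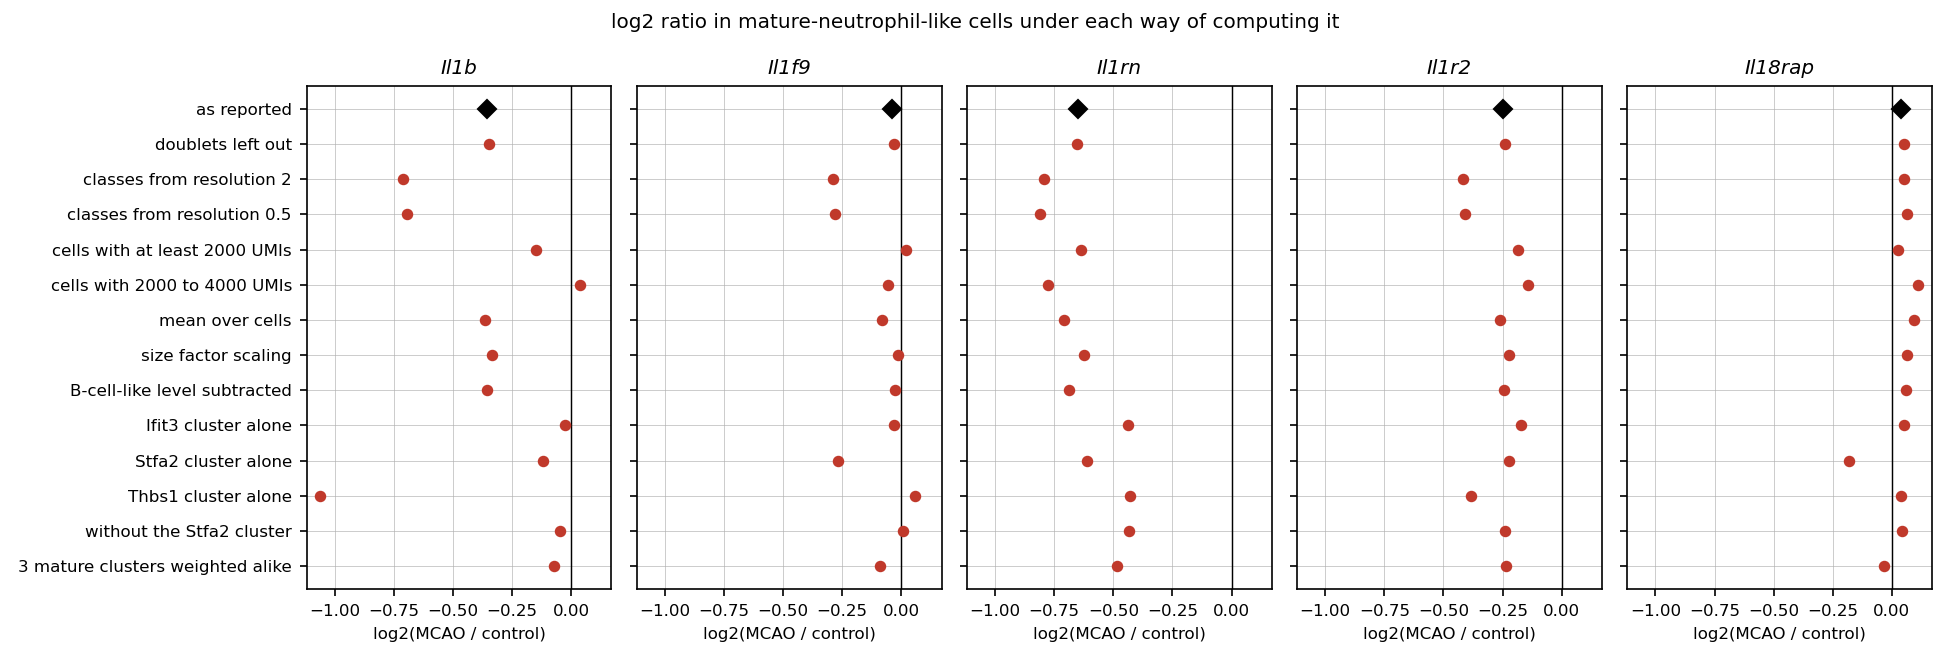
log2 of the MCAO level over the control level in mature-neutrophil-like cells for 5 genes, as reported (black diamond) and under 13 other ways of computing it (red points). Il1rn stays below 0 in each, from -0.81 to -0.43, while Il1b runs from -1.06 to 0.04 and Il18rap stays near 0.

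The balance of inhibitors to agonists was followed as the UMIs of Il1rn and Il1r2 over those of Il1a and Il1b in the same cells. It is a ratio of counts that is set side by side between groups of cells, not a ratio of proteins. In mature-neutrophil-like cells it was 1.08 in MCAO (1.03 to 1.13) and 1.13 in control (1.08 to 1.18), and the intervals overlapped. The Ifit3 cluster had 0.582 in MCAO (0.542 to 0.624) and 0.694 in control (0.662 to 0.729), intervals that did not overlap. The Stfa2 cluster had 1.30 in MCAO (1.22 to 1.39) and 1.56 in control (1.27 to 1.91), which overlapped. In the Thbs1 cluster the MCAO value was the higher one, at 13.7 in MCAO (10.4 to 18.3) and 8.49 in control (7.41 to 9.77), without overlap. That ratio rests on 56 agonist UMIs in MCAO and 234 in control. The Il1b level there was 1.24 times that of B-cell-like cells in MCAO and 1.98 times in control. The part of free RNA in the Thbs1 ratio was not tested. Monocyte-like cells also had a higher value in MCAO, 1.27 (1.10 to 1.47), than in control, 0.681 (0.568 to 0.814). Their inhibitor levels were near or below those of B-cell-like cells. Il1r2 was 0.393 in MCAO and 0.283 in control, beside 0.365 in MCAO and 0.439 in control in B-cell-like cells. Il1rn was 0.224 in MCAO and 0.245 in control, beside 0.190 in MCAO and 0.185 in control. The part of free RNA in the monocyte-like ratio was not tested. Immature-neutrophil-like cells had 16.9 in MCAO (13.5 to 21.3) and 22.6 in control (16.6 to 31.6). Their 83 agonist UMIs in MCAO and 42 in control were at a level below that of B-cell-like cells, so the ratio there cannot be read as a balance made by these cells. Il1rn and Il1r2 thus stood above the B-cell-like level from earlier stages than Il1b did, and among the neutrophil classes and clusters the Ifit3 cluster had the lowest ratio in both libraries. The Ace monocyte cluster lay lowest, at 0.133 in MCAO and 0.0962 in control, since it had Il1b with 6 UMIs of the inhibitors in MCAO and 10 in control.

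The receptor chains were thinly covered except for Il18rap. Il1rap, the shared co-receptor gene, had 134 UMIs in mature-neutrophil-like cells in MCAO and 104 in control, at levels of 0.250 in MCAO and 0.209 in control and a fold of 1.19 (0.917 to 1.56). In the Ifit3 cluster it was 0.536 in MCAO (60 UMIs) and 0.296 in control (63 UMIs), a fold of 1.81 (1.25 to 2.62). In immature-neutrophil-like cells it was 0.122 in MCAO and 0.190 in control (0.643, 0.439 to 0.945), and in pre-neutrophil-like cells 0.121 in MCAO and 0.191 in control (0.630, 0.424 to 0.938). B-cell-like cells had 0.0656 in MCAO and 0.115 in control, and the part of free RNA in these low levels was not tested. Il1r1, the signalling receptor gene of interleukin 1, had 9 UMIs in mature-neutrophil-like cells in MCAO and 5 in control. It had more UMIs in promyelocyte-like cells than in any other class, at 0.0908 in MCAO (40 UMIs) and 0.159 in control (41 UMIs). By level, macrophage-like cells (0.141, 5 UMIs) and NK-cell-like cells (0.0995, 2 UMIs) were higher in MCAO but not in control. Erythroid-like cells had 0.0797 in MCAO (31 UMIs) and 0.104 in control (26 UMIs). Immature-neutrophil-like cells had 15 UMIs in MCAO and 0 in control. Il1rl2, the receptor gene for interleukin 36, also had more UMIs in promyelocyte-like cells than in any other class. It stood there at 0.129 in MCAO (57 UMIs) and 0.124 in control (32 UMIs), and had 2 UMIs in mature-neutrophil-like cells in MCAO and 7 in control. The progenitor marker Cd34 was among the leading genes of the promyelocyte-like class, and the part of progenitors in these values was not tested. Il1rl1, the interleukin 33 receptor gene, stood at 3.65 in MCAO and 4.05 in control in basophil-or-mast-like cells and at 1.16 in MCAO and 1.24 in control in erythroid-like cells.

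Il18rap, the co-receptor gene for interleukin 18, was spread over lymphoid, basophil and neutrophil cells and hardly differed between the libraries in neutrophils. Promyelocyte-like cells had 0.302 in MCAO and 0.244 in control, pre-neutrophil-like cells 0.934 in MCAO and 0.829 in control, immature-neutrophil-like cells 1.64 in MCAO and 1.58 in control and mature-neutrophil-like cells 1.96 in MCAO and 1.91 in control. The mature fold was 1.03 (0.942 to 1.12), and the 3 mature clusters had 1.93 to 1.97 in MCAO and 1.86 to 2.24 in control. Its ratio and that of Il1f9 were the nearest to 1 among the 5 best covered members. Basophil-or-mast-like cells had the highest level, 5.15 in MCAO (130 UMIs in 50 cells) and 3.02 in control (97 UMIs in 54 cells), a fold of 1.71 (1.30 to 2.24). NK-cell-like cells had 4.33 in MCAO (87 UMIs in 43 cells) and 2.82 in control (75 UMIs in 39 cells), a fold of 1.54 (1.12 to 2.12). Among basophil-or-mast-like cells with 2000 to 4000 UMIs, the log2 ratio of 0.77 turned to -0.21. Its partner chain gene Il18r1 shared the lymphoid and basophil places, at 2.89 in MCAO and 2.07 in control in NK-cell-like cells and 2.02 in MCAO and 1.34 in control in basophil-or-mast-like cells, but was low in mature-neutrophil-like cells, at 0.168 in MCAO and 0.223 in control.

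The members that differed by 1.5-fold were counted beside all genes that did. A gene entered the count when its UMIs over both libraries came to 50 or more and it was seen in at least 2% of the cells of the class in 1 library, and it was called at a fold of 1.5 or more. In mature-neutrophil-like cells 6 of the 8 members passed this filter (Il1a and Il18 did not), with 0 called higher and 1, Il1rn, called lower, where 3.14% of 7129 genes were higher and 5.58% lower. In immature-neutrophil-like cells 6 passed, with Il1f9 called higher and Il1rap lower, beside 4.16% of all genes higher and 5.42% lower. In pre-neutrophil-like cells 6 passed, with 0 called higher and 2, Il1rn and Il1rap, called lower, beside 4.35% higher and 3.66% lower. In monocyte-like cells 7 passed, with 0 higher and 2, Il1b and Il1rap, lower, beside 4.66% higher and 4.97% lower. With so few members, 1 or 2 calls are no more than a count, and whether the family differed more often than other genes cannot be read from them.

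The genes that process interleukin 1 were followed in mature-neutrophil-like cells. Of 14 inflammasome and processing genes 11 passed the filter and 0 reached a fold of 1.5 in either direction, where 3.14% of all genes were higher and 5.58% lower, so that a count of 0 is near the background. Their median log2 ratio was 0.05, beside -0.02 for all genes tested. The widest ratios were 0.51 for Pycard, the adaptor ASC (0.481 in MCAO and 0.332 in control), -0.43 for Aim2, a DNA sensor, -0.38 for Nlrp3, the sensor of the best known inflammasome (2.08 in MCAO and 2.71 in control), and -0.26 for Gsdmd, whose product opens pores for release. Casp1 itself had 0.941 in MCAO and 0.924 in control. Nlrp3 followed Il1b over the mature clusters, at 3.76 in MCAO and 4.59 in control in the Ifit3 cluster and 0.752 in MCAO and 1.15 in control in the Thbs1 cluster.

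Of 19 genes of the signal chain behind the receptors, 16 passed and 0 reached 1.5-fold, again beside 3.14% of all genes higher and 5.58% lower, with a median log2 ratio of -0.13. Traf6, a ubiquitin ligase of this chain, had -0.47, the ubiquitin-conjugating enzyme gene Ube2n -0.42, Peli1 -0.32 and the adaptor gene Myd88 0.38, with 1.59 in MCAO and 1.22 in control. Of 12 feedback and response genes 9 passed, with 0 called higher and 1 lower, against the same shares of all genes, and a median of -0.28. The call was Ptgs2, the inducible cyclooxygenase, at 0.203 in MCAO and 0.791 in control, a fold of 0.257 (0.206 to 0.318) that was below 1 in each mature cluster. Nfkbiz (-0.55, with 1.18 in MCAO and 1.74 in control), Tnip1 (-0.54) and Zc3h12a (-0.43) came next, and 6 of the 9 ratios were below 1. Within the Stfa2 cluster Tnip1 had a fold above 1, 1.32, with 6 UMIs in control.

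**Figure D4:**
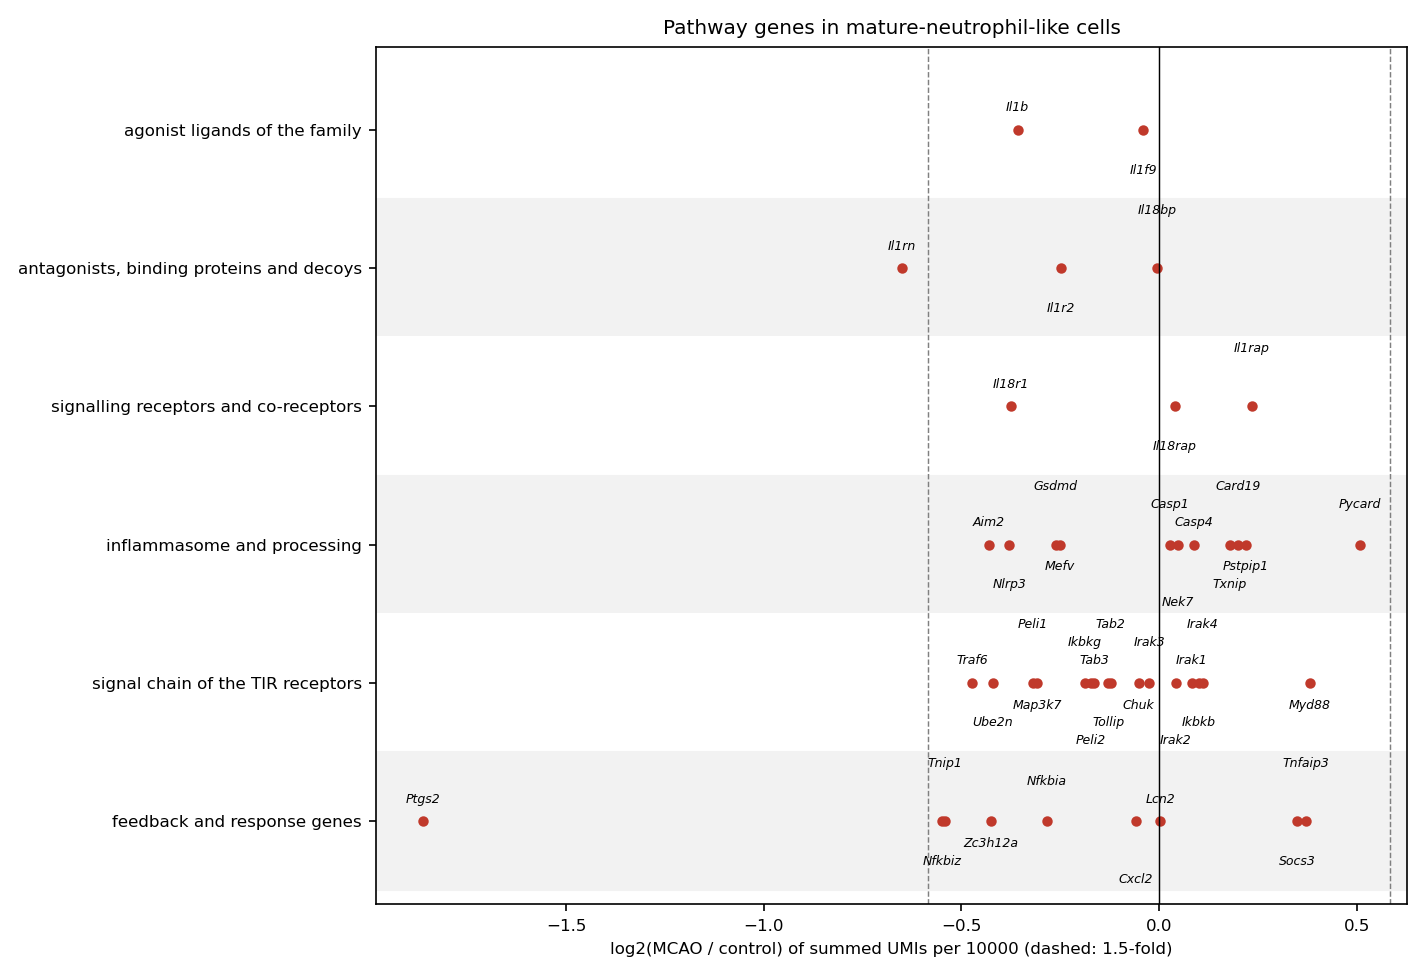
log2 of the MCAO level over the control level in mature-neutrophil-like cells for the listed genes that passed the filter, 1 row per list; dashed lines mark 1.5-fold. Only Il1rn and Ptgs2 (-1.86) lie beyond a dashed line.

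The genes most like each member over the 12 classes were found by Pearson correlation of log2 levels, a description over classes that share libraries and free RNA, among 8733 genes. Closest to Il1b were Vnn3 (r = 0.97), Cxcl2 (0.97), a neutrophil-attracting chemokine, and Sirpb1b (0.93). Closest to Il1f9 were Ggt5 (0.99), Retnlg (0.98) and Ifit1bl2 (0.98), to Il1rn Slfn4 (0.98), Amer2 (0.98) and Dhrs9 (0.97), and to Il1r2 Trem1 (0.99), Cd33 (0.98) and Chp1 (0.98). Among the closest to Il18 were Siglec1 (0.98), a macrophage surface gene, and Hpgd (0.97). Closest to Il18rap were Nbeal2 (0.94), Atp11b (0.90) and Hcst (0.90), and to Il1rap Hdc (0.91), Mbd6 (0.89) and Msra (0.89). Among the members, Il1f9 and Il1r2 were most alike (r = 0.95), while Il1b with Il1r2 reached 0.66.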

How the data were processed

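Whole-transcriptome UMI profiles of bone marrow cells were used, from 1 MCAO and 1 control library of male WT mice, made on the BD Rhapsody microwell system. Per the submitters' processing notes, fastp, STAR, UMI-tools and Seurat 4.0.6 were used with the build mm10; order, settings, gene annotation and cell filters are not stated in the sources used. The authors deposited natural log values, ln(1 + 10000 x the gene's share of a cell's UMIs), as the values themselves show: the linear values of each cell sum to 10000. Whole UMIs were recovered for 100% of 19373615 values within 0.01 UMIs. Cells were assigned to libraries by the start of their names, Mandarin words for control and stroke, by translation. The names number the cells and hold no barcode sequence, so shared barcodes could not be counted.

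With scanpy 1.11.5 and leidenalg 0.10.2, all cells were clustered on 2000 variable genes, 30 components and 20 neighbours at resolution 1 (24 clusters), without integration. Clusters were named from 20 marker sets, needing 3 detected markers. Doublet scoring marked 64 MCAO cells (1.19%) and 54 control cells (1.04%), which were kept. Log2 ratios used a pseudocount of 0.02 per 10000. No test between conditions was possible. The ratio and its interval were tested on simulated data. The 8 genes, the lists and the markers were chosen with earlier results of these data known. Of each list, up to 4 genes with the widest ratios in mature-neutrophil-like cells are named; Casp1, and the other family receptors outside this rule, were named after their values were seen. Alternatives were other resolutions, depth limits, doublet removal, mean over cells, size-factor scaling, subtraction of the B-cell-like level, another pseudocount, thinning and single clusters. A gene among those most like Il18 is not reported here.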

Additional observations from a re-analysis of the deposited data

Results flagged for a closer look

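Il1b differed in opposite directions in a pair of small classes. The log2 ratio of MCAO over control was 0.89 in plasmacytoid-dendritic-like cells (71 UMIs in MCAO and 27 in control) and -0.95 in macrophage-like cells (18 UMIs in MCAO and 42 in control). The difference between the classes was not tested, since each group is 1 library. In the plasmacytoid-dendritic-like cells of MCAO, 2 cells held 13 UMIs each, and the top control cell held 5. This class had 170 MCAO and 145 control cells, with the conventional dendritic cell marker Cd209a among its leading genes. At resolution 2 it had 117 MCAO and 116 control cells, beside a conventional-dendritic-like class of 58 MCAO and 41 control cells. The part of such cells in the Il1b ratio was not tested.

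Il1f9 had a log2 ratio of 1.02 in immature-neutrophil-like cells (599 UMIs in MCAO and 165 in control) but -1.32 in the pro-B-or-pre-B-like class (7 UMIs in MCAO and 48 in control), and this difference was not tested either. The pro-B-or-pre-B-like levels, 0.0667 in MCAO and 0.196 in control, are below those of B-cell-like cells.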

How the results depend on the processing

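Il1rn stayed lower in mature-neutrophil-like cells of MCAO under every alternative run: its log2 ratio of -0.65 became -0.79 and -0.81 with classes from resolutions 2 and 0.5, -0.78 in cells with 2000 to 4000 UMIs, -0.44 and -0.43 in the Ifit3 and Thbs1 clusters alone, and, in settings added after seeing the data, -0.43 without the Stfa2 cluster and -0.48 with the 3 clusters weighted alike. Il1b (-0.36) became -0.71 and -0.70 at resolutions 2 and 0.5, -0.15 in cells with at least 2000 UMIs, 0.036 in cells with 2000 to 4000 UMIs, -0.026, -0.12 and -1.06 in the Ifit3, Stfa2 and Thbs1 clusters, -0.047 without the Stfa2 cluster and -0.074 with clusters weighted alike. Il1f9 (-0.04) became -0.29 and -0.28 at the other resolutions, -0.27 in the Stfa2 and 0.056 in the Thbs1 cluster. Il1r2 (-0.25) became -0.42 and -0.41, -0.14 at 2000 to 4000 UMIs and -0.38 in the Thbs1 cluster. Il1rap (0.23) became 0.79 at 2000 to 4000 UMIs, 0.83 with the B-cell-like level subtracted, 0.82 in the Ifit3 and -0.59 in the Stfa2 cluster, and Il18rap (0.04) -0.18 in the Stfa2 cluster. Without the Stfa2 cluster the inhibitor to agonist ratio was 0.917 in MCAO and 1.11 in control. With no filter on low counts, 3518 genes were 1.5-fold higher and 4194 lower in the mature class, against 224 and 398. Outside the mature class, the sign of a called ratio turned for Il1f9 in immature-neutrophil-like cells. It was -0.091 and -0.075 at resolutions 2 and 0.5, where the class took in mature cells. At 2000 to 4000 UMIs the sign turned for Il1b in monocyte-like (0.38) and plasmacytoid-dendritic-like cells (-0.67). It also turned there for Il18rap in basophil-or-mast-like cells (-0.21). The cause was not tested. In the mature class, the ratios of Il1b, Il1f9, Il1rap and Il18rap took both signs, as given above. Some ratios elsewhere that were not called did so too. Examples are Il1b in immature-neutrophil-like cells (-0.33 to 0.60) and Il1rn in monocyte-like cells (-1.06 to 0.057). Of the other values, 69 for the mature class and its counts and 369 elsewhere stayed within counting error, and 45 elsewhere moved without a change of sign that was called.

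At resolution 1 no cluster had over 90% of its cells from 1 library (the Stfa2 cluster had 88.7% from MCAO), so leaving such clusters out gave no value. No paired analysis was possible because each group has 1 library, and for the same reason no replicate was left out. Depth limits Il1a, Il1rap and Il18 in neutrophils and all values of classes with few cells.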

Other observations

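Single cells set the Il1b level of T-cell-like cells. It was 0.770 per 10000 in MCAO (26 UMIs in 89 cells) and 0.157 in control (6 UMIs in 92 cells), but 1 MCAO cell held 19 of the 26 UMIs, and without the top cell of each library the levels were 0.211 in MCAO and 0.132 in control. The doublet scoring had not marked that cell. In plasmacytoid-dendritic-like cells the level without the top cell was 0.584 in MCAO and 0.306 in control.

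Il18bp, the gene of the soluble interleukin 18 binding protein, was highest in macrophage-like cells, as was Il18. Its level there was 0.679 in MCAO (24 UMIs) and 1.80 in control (75 UMIs), a fold of 0.378 (0.228 to 0.606). Neutrophil markers in these macrophage-like cells differed between the libraries, and their part in this fold was not tested. In mature-neutrophil-like cells Il18bp was 0.501 in MCAO and 0.503 in control. Il1rl1 in promyelocyte-like cells was 0.0454 in MCAO (20 UMIs) and 0.206 in control (53 UMIs), a fold of 0.221 (0.125 to 0.375). At resolution 2 the promyelocyte-like class had 212 MCAO and 100 control cells, beside a progenitor-like class of 171 MCAO and 128 control cells. The part of progenitors in this fold was not tested. Il33 was found almost only in the pro-B-or-pre-B-like class, with 16 of 17 UMIs in MCAO and 14 of 15 in control.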
